A study of Mus musculus with 4 samples.

Results

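The wild-type forms of 2 TAF3 constructs were compared by where they directed the integration of an HIV-based vector. Full WT carried the full-length TAF3 protein and PHD WT carried its PHD domain alone. The comparison uses 2 of the 4 libraries of the series, chosen by their label. Its units are 47849 distinct integration sites (22486 of Full WT and 25363 of PHD WT) of 122029 over all 4 libraries. A site is a distinct chromosome, strand and vector junction. The other libraries, which carry the M880A substitution, enter no comparison here.

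TAF3 is a subunit of TFIID, the general transcription factor that recognises promoters and starts the assembly of the preinitiation complex. Its PHD finger, near the end of the protein, is a small zinc-binding domain that recognises trimethylated lysine 4 of histone H3, which is found at active promoters. The rest of TAF3 includes a histone-fold domain, through which it joins TFIID. LEDGF/p75, the product of Psip1, normally tethers HIV integrase to chromatin through its integrase-binding domain. When that domain is fused to another protein in cells without LEDGF/p75, the places of integration can report where the fusion sits on chromatin. The comparison asks whether the PHD domain alone reaches the same places as the whole protein and sits in them in the same way.

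Both libraries came from Psip1 (-/-) E2 MEF-KO cells, mouse embryonic fibroblasts of strain C57BL/6. The TAF3-LEDGF-IBD fusions were introduced from plasmids by nucleofection, and the cells were sorted for GFP after 24 to 36 h. The sorted cells were infected with 500 ng of a VSV-G pseudotyped luciferase vector in 8 μg/mL polybrene and harvested after 48 to 72 h. The groups differed only in the fusion, per the labels, and each has 1 library from a pool of cells. The differences below are between single libraries, without a replicate check or a p-value. The labelled cell type was not checked against marker genes, since the data are positions in genomic DNA.

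The numbers listed with the sites, taken as reads, summed to 2119983 in Full WT and 2228958 in PHD WT, with medians of 41 and 29 per site and a minimum of 2 in both. Their sum was similar, but 75.2% of Full WT sites and 65.4% of PHD WT sites had at least 10. Listed fragments had a median length of 106 bp in Full WT and 119 bp in PHD WT. The read names place Full WT alone on its flow cell, while PHD WT shared another with both M880A libraries. The length of the protein and the flow cell thus cannot be told apart in any result below. Intervals are 95% intervals that treat sites as independent and cover counting error only. Reads were amplified by PCR and carry no molecular identifiers, so positions were counted and not reads.

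Neighbouring sites were crowded over the same range of distances within each library and between them. Densities are given per kb and per 10000 sites of the library counted, so the longer PHD WT list does not raise them. At distances up to 50 bp, the density was 0.480 around Full WT sites for Full WT, 0.917 around PHD WT sites for PHD WT, and 0.526 between the libraries. Merging same-strand positions within 10 bp left 22178 of the Full WT and 24771 of the PHD WT sites. The densities within the libraries were not recomputed on these, so the values up to 50 bp include such close positions. Whether they are repeat calls of a single junction was not tested. Between 500 and 1000 bp the densities were 0.191, 0.404 and 0.251 in the same order. PHD WT was thus the more crowded library, and the density between the libraries lay between the densities within them. The order was reversed at 3000 to 5000 bp, where the densities were 0.0260, 0.0229 and 0.0251. Full WT also stayed above PHD WT at 5000 to 10000 bp (0.0149 and 0.0121) and at 10000 to 20000 bp (0.0123 and 0.0109). Between 20 and 50 kb they were 0.0124, 0.0124 and 0.0123. The density within 1 kb was 19.6 times that at 20 to 50 kb in Full WT, 44.1 times in PHD WT and 26.7 times between the libraries. PHD WT was thus the denser library at distances under 3 kb, and Full WT was the denser, by less, from 3 to 20 kb. From 20 kb on they had nearly the same density.

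**Figure D1:**
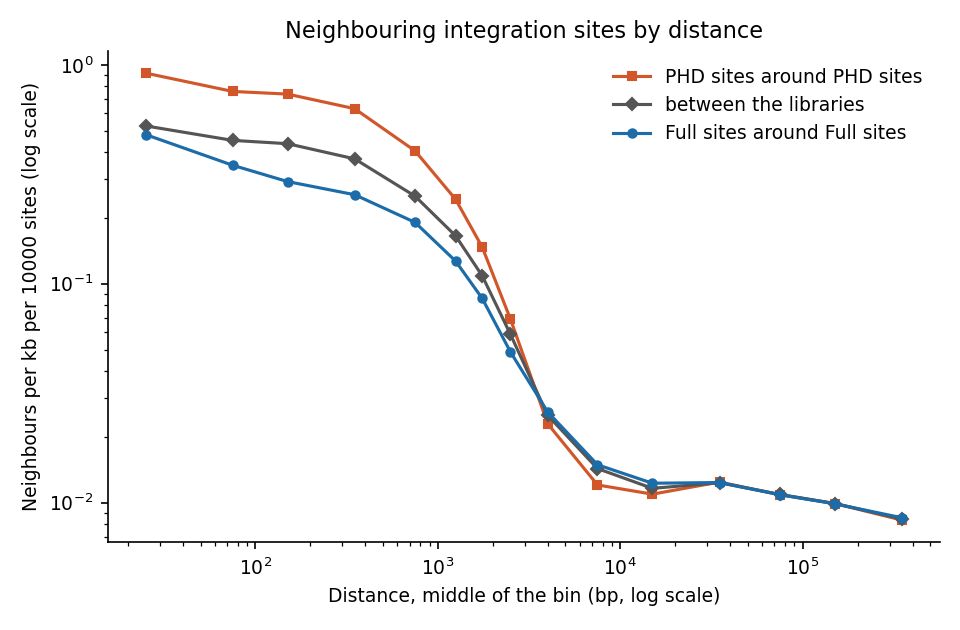
Mean number of neighbouring sites per kb and per 10000 sites of the library counted (log scale) against distance (bp, log scale), for Full sites around Full sites, PHD sites around PHD sites, and between the libraries. The curves are separate below 3000 bp, with PHD highest. Full is highest from 3000 to 20000 bp, and the curves meet near 0.0124 between 20 and 50 kb.

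Foci were called in each library alone, as runs of at least 5 sites on either strand with gaps of at most 1000 bp. Full WT had 445 foci and PHD WT 1222, from a list 1.13 times as long. Their median widths were 1461 bp and 1311 bp. Of the Full WT foci, 316 (71.0%, 66.6 to 75.03) touched a PHD WT focus. Of the PHD WT foci, 320 (26.2%, 23.8 to 28.7) touched a Full WT focus. The numbers that touched were nearly equal, so the difference between these shares follows from the number of foci in each list. At the level of single sites the lists were closer, with at least 1 site of the other library in 426 Full WT foci (95.7%, 93.4 to 97.2) and in 943 PHD WT foci (77.2%, 74.7 to 79.4). Full WT foci held a median of 5 PHD WT sites, and 19 of them held none. PHD WT foci held a median of 2 Full WT sites, and 279 held none.

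The number of Full WT sites in a PHD WT focus was larger in the larger foci. The 324 PHD WT foci of exactly 5 sites held on average 1.21 Full WT sites, and 123 of them held none. The 272 foci of 8 to 10 sites held on average 2.96, and 34 held none. The 46 foci of at least 16 sites held between 1 and 20 Full WT sites, on average 6.70. Per PHD WT site, this was 0.241, 0.334 and 0.350 Full WT sites. The value was highest, 0.365, in the foci of 11 to 15 sites. The larger foci were also wider, with a median width of 941 bp at exactly 5 sites and 3076 bp at 16 or more. In the opposite direction, the 166 Full WT foci of exactly 5 sites held on average 3.86 PHD WT sites, and the 51 of at least 11 sites held between 2 and 22, on average 10. Per Full WT site, this was 0.772 and 0.738 PHD WT sites. In both directions the largest foci of either library each held sites of the other. The foci of a library are chosen by its own counts, so the count of its own sites in them is high by the rule.

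Sites of each library lay evenly on both sides of the foci of the other. Within 5 kb of the centre of a Full WT focus, taken as its median junction, there were 3757 PHD WT sites, 1874 upstream and 1871 downstream in genome coordinates. Their median distance from the centre was 566.5 bp (545 to 592), and 72.5% lay within 1000 bp. Around the PHD WT centres there were 4882 Full WT sites, 2477 upstream and 2396 downstream. Their median distance was 558.2 bp (538 to 583), and 69.6% lay within 1000 bp. The median signed offset was 0 bp for PHD WT sites around Full WT foci and -10 bp for Full WT sites around PHD WT foci. On the plus and minus strands apart, it was 1 and -1.25 bp around Full WT foci, and 1 and -42 bp around PHD WT foci. In genome coordinates, the sites of the other library thus had no displacement to either side over 42 bp in any of these medians. The foci were not oriented by genes, so a shift along the direction of transcription could cancel here and was not tested.

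To set both libraries beside each other at the same places, foci were called on the sites of a single strand, and the sites of the opposite strand were measured. The measured sites of either library then had no part in choosing the places. Full WT gave 193 such foci. Per focus and per 10000 sites, 3.902 Full WT and 4.203 PHD WT sites lay within 5 kb, a ratio of 0.928 (0.847 to 1.02). PHD WT gave 721 such foci, with 2.45 Full WT and 3.61 PHD WT sites, a ratio of 0.680 (0.643 to 0.719). At the Full WT places, PHD WT thus had a share of sites whose interval of the ratio to Full WT held 1, while at the PHD WT places the share of Full WT was lower. The difference between these ratios was not tested. The interval at the Full WT places excluded 1 with a gap of 2000 bp (0.874, 0.809 to 0.944) and with offsets within 2000 bp (0.880, 0.798 to 0.970).

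The same opposite-strand sites gave the spread. At Full WT foci the median distance from the centre was 717 bp (682.5 to 777) for Full WT sites and 651 bp (583 to 708) for PHD WT sites. At PHD WT foci it was 645 bp (615 to 679) for Full WT and 552.5 bp (531 to 579.5) for PHD WT. Full WT sites were farther out at both, by 66 bp and by 92.5 bp, and the intervals of the medians overlapped only at the Full WT foci. Part of this lay in the flanks: beyond 3000 bp were 7.08% of the Full WT and 3.79% of the PHD WT sites at Full WT foci, and 4.97% and 2.67% at PHD WT foci. Within 2000 bp the medians were 617 bp (560 to 680) and 565.2 bp (511 to 619.5) at Full WT foci. At PHD WT foci they were 539 bp (502.5 to 577) and 497.8 bp (479 to 519.5), and both pairs of intervals overlapped.

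**Figure D2:**
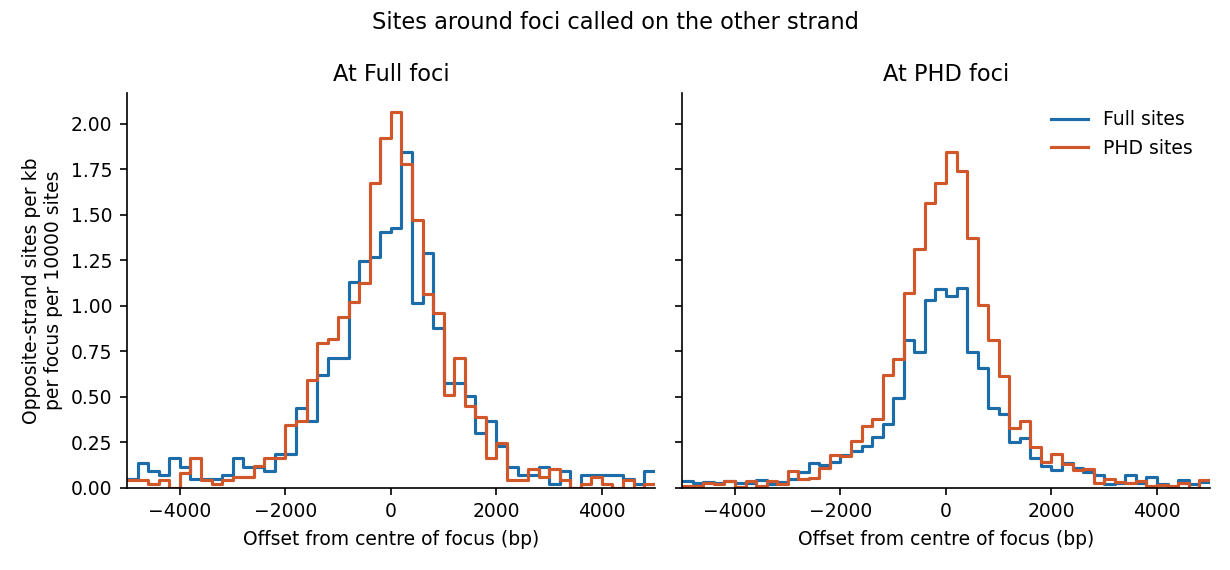
Opposite-strand sites per kb, per focus and per 10000 sites of the library, in bins of 200 bp, against the signed offset (bp) from the centre of foci called on single-strand Full sites (left) and PHD sites (right). The highest bin of each curve lies within 400 bp of the centre, and the highest Full bin at Full foci is at 200 to 400 bp (1.84). Within 200 bp of the centre the PHD curve is the higher at both, and it reaches 2.06 at Full foci and 1.84 at PHD foci.

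Foci were then called on the pooled sites of both libraries, with the same rule. Of 2143 pooled foci, 1991 (92.9%) held both libraries. At least 5 sites of each were present in 370, here called shared foci, which held 12.4% of the Full WT and 14.7% of the PHD WT sites. A further 884 had at least 5 PHD WT and under 5 Full WT sites, 146 of them without any Full WT site. In 131 there were at least 5 Full WT and under 5 PHD WT sites, and 6 of these had no PHD WT site. The remaining 758 reached 5 only through both libraries. Shared foci had a median width of 2380 bp (lower and upper quartile 1842 and 3189 bp) and medians of 6 Full WT and 9 PHD WT sites.

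Within shared foci the libraries were intermixed. The mean distance between pairs of sites, which does not depend on their number, had a median over foci of 778 bp within Full WT, 759 bp within PHD WT and 785 bp between the libraries. Per focus, the distance between the libraries was a median of 0.980 times the mean of the distances within them, and it was at least 1.5 times as large in 7 of 370. The medians of the libraries lay 281.5 bp apart at the median focus, within 500 bp in 258 foci (69.7%) and over 1000 bp apart in 30. The Full WT median lay on either side, with a median signed difference of -28 bp (quartiles -312 and 258 bp). The Full WT spread was the wider in 204 foci (55.1%, 50.0 to 60.1) and the PHD WT spread in 166. With the interquartile range as the measure, Full WT was the wider in 46.8% (41.7 to 51.8), so the direction did not hold with it. Unlike the mean pairwise distance, the interquartile range depends on the number of sites, with medians of 6 in Full WT and 9 in PHD WT. The part of this in the change of direction was not tested. One spread was at least 1.5 times the other in 79 foci with the wider Full WT and in 64 with the wider PHD WT. The spreads were correlated across the 370 foci (Pearson r 0.528, Spearman rho 0.464). This is a description, since both spreads are limited by the same borders.

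**Figure D3:**
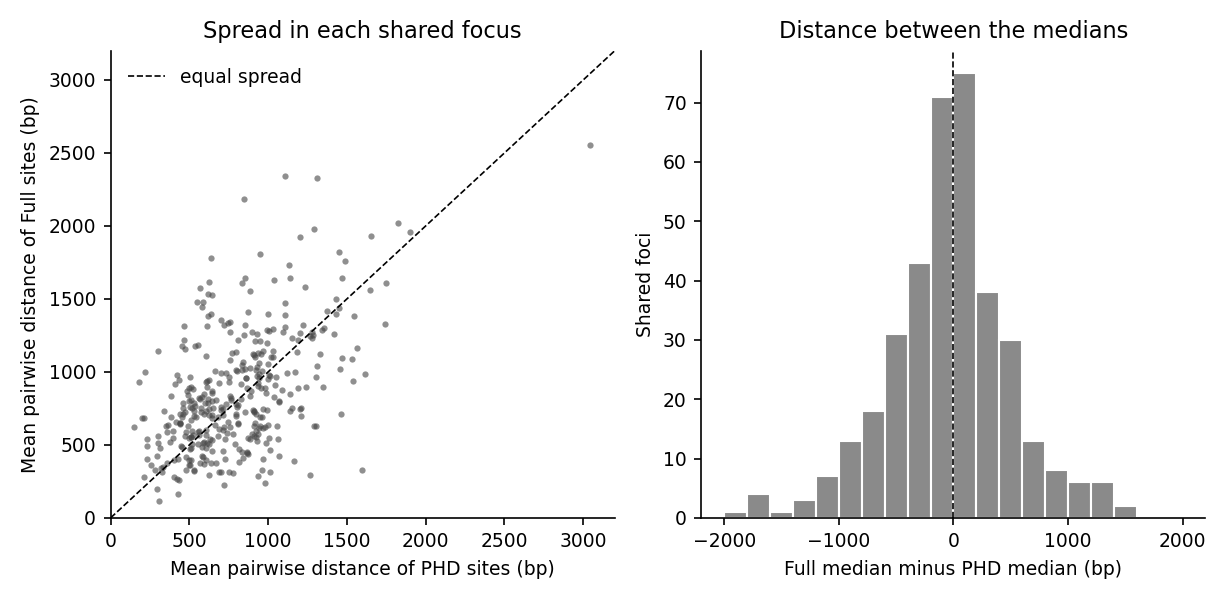
Left, the mean pairwise distance (bp) of Full sites against that of PHD sites in each of 370 shared foci, with a dashed line of equal spread. Right, the number of shared foci by the Full median minus the PHD median (bp), with a dashed line at 0; the points scatter on both sides of equal spread, and the differences of the medians centre near 0.

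The 10 pooled foci with the most sites held 33 to 52 sites of both libraries each, on 6 chromosomes (coordinates are mm9). The fullest lay on chromosome 17 from 34253427 to 34260689, with 24 Full WT and 28 PHD WT sites. These were 10.67 and 11.04 per 10000 sites, a ratio of 0.967 (0.536 to 1.73). Sites of both libraries ran from end to end of it, and its spreads were 2556 bp in Full WT and 3042 bp in PHD WT. The next, on chromosome 5 from 143572537 to 143578901, counted 32 sites of PHD WT and 18 of Full WT (ratio 0.634, 0.335 to 1.16). Its Full WT sites began at 143572537 and its PHD WT sites at 143574004, with a spread of 2328 bp for Full WT and 1311 bp for PHD WT. The third, on chromosome 17 from 24855855 to 24861259, had 18 and 30 sites (0.677, 0.355 to 1.25), with medians 38 bp apart and spreads of 1955 and 1902 bp. On chromosome 19, from 5796730 to 5802954, there were 21 Full WT and 26 PHD WT sites (0.911, 0.487 to 1.68), with the Full WT median 1008 bp further along the chromosome. Across the 10, the ratio of shares ran from 0.490 to 1.82, each interval held 1, and Full WT had the higher share in 2. Those were chromosome 17 from 36003240 to 36007316, with 22 Full WT and 19 PHD WT sites, and chromosome 10 from 79611703 to 79615780, with 21 and 13. Each of the 10 fullest foci thus held both constructs, with the lower share in Full WT in most. Neither trait was particular to them. Among all 703 pooled foci of at least 10 sites, 6 lacked a Full WT site and 0 a PHD WT site. The upper quartile of the ratio over these was 0.978. The counts of the 10 did not set the shares apart at any single focus.

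Some shared foci had the libraries side by side. These were picked, by their values, among the 100 shared foci with at least 8 sites of each library, so their size is a description. On chromosome 17 from 48547134 to 48550662, the 8 Full WT sites had their median 1656 bp before that of the 8 PHD WT sites. The Full WT sites ended at 48549633, while 6 of 8 PHD WT sites lay beyond that position. On chromosome 10 from 80598131 to 80601654, the median of 11 Full WT sites lay 1390 bp after that of 20 PHD WT sites, and the libraries overlapped over most of the focus. On chromosome 3 from 5218657 to 5223084, 9 Full WT sites lay 1310 bp before 13 PHD WT sites by their medians. Over the 100 foci the medians were 391 bp apart at the median focus, and Full WT was the wider in 59 and PHD WT in 41.

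Among the same 100 foci, the largest excess of Full WT spread was on chromosome 17 from 25028561 to 25033288. There 10 Full WT sites ranged over the whole focus, from 25028561 to 25033288, and 13 PHD WT sites lay between 25031193 and 25033017. The spreads were 1781 and 638 bp. On chromosome 19 from 5488650 to 5492945, 18 Full WT and 12 PHD WT sites had spreads of 1447 and 577 bp with medians 125 bp apart. In the opposite direction, on chromosome 7 from 29743864 to 29746942, the 8 Full WT sites lay between 29745778 and 29746434 and the 22 PHD WT sites ran from end to end. The spreads there were 236 and 980 bp. On chromosome 10 from 114820823 to 114824689, 8 Full WT and 12 PHD WT sites had spreads of 711 and 1461 bp. Foci with the wider Full WT and foci with the wider PHD WT thus both occurred, and these spreads rest on 8 to 22 sites each.

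**Figure D4:**
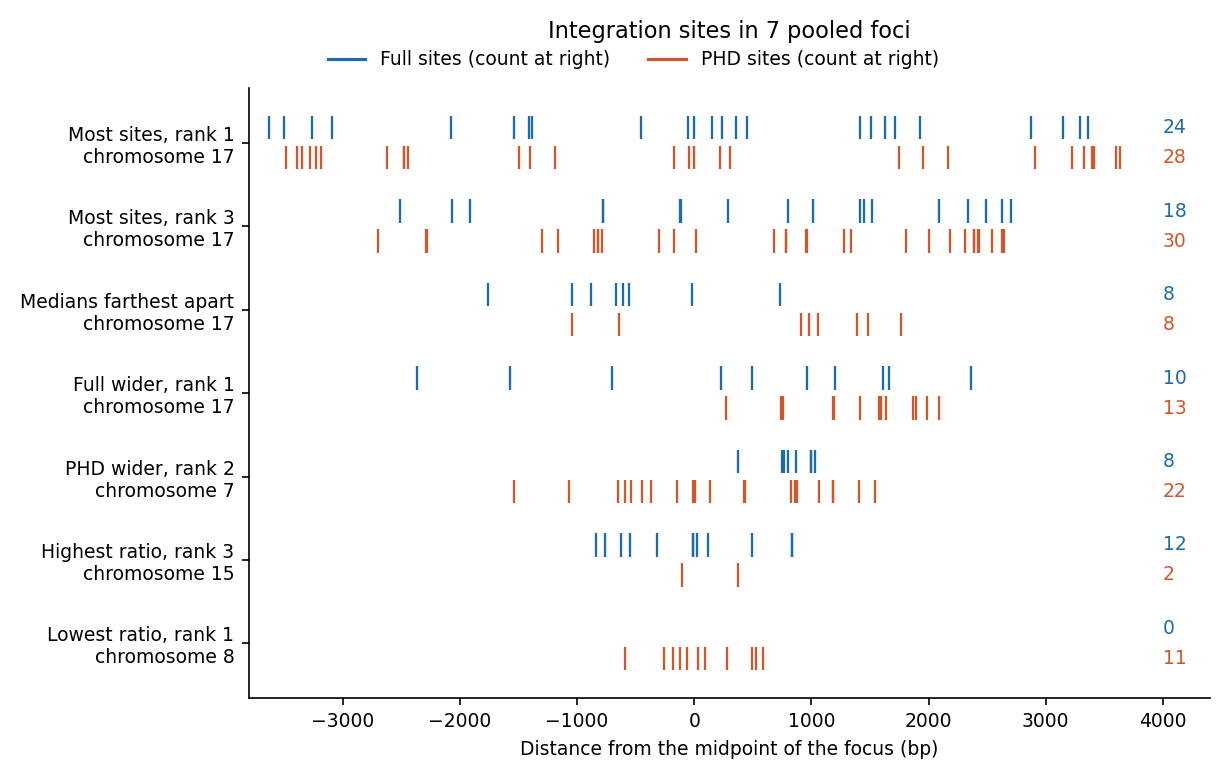
Positions (bp from the midpoint) of Full sites (upper ticks) and PHD sites (lower ticks) in 7 pooled foci, with the number of sites at the right. In the upper pair of rows, sites of both libraries reach nearly from end to end, the foci picked by distance or spread have sites of 1 library beyond the other, and the last row holds 11 PHD sites and 0 Full sites.

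Where the shares differed at least 2-fold at a pooled focus, PHD WT was usually the higher. Of 703 pooled foci with at least 10 sites, 27 (3.84%) had a share at least 2-fold higher in Full WT and 234 (33.3%) a share at least 2-fold lower, with 0.5 added to each count. The median ratio was 0.677. By exact conditional intervals, not adjusted for the number of foci, 4 (0.569%) were higher and 81 (11.5%) lower. A focus enters by its total over both libraries, so the more crowded library brings in places where it is high. In 1160 windows of 100 kb with at least 10 sites, 64 (5.52%) were at least 2-fold higher in Full WT and 242 (20.9%) at least 2-fold lower, with a median ratio of 0.806. By exact intervals, 15 windows (1.29%) were higher and 79 (6.81%) lower. Most of the 1160 windows of 100 kb, 854, were within 2-fold. With windows of 1 Mb, 118 were at least 2-fold higher in Full WT and 133 lower. The number of 1 Mb windows with at least 10 sites was not recorded, so no share is given for them. Their counts can therefore not be set against those of the 100 kb windows.

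The foci with the highest and lowest ratios were picked by that ratio among the 703, so their ratios and intervals are a description. An interval without 1 is no evidence of a difference at a focus picked in this way. The highest ratios came from small counts. On chromosome 15 from 76734684 to 76736355, 12 Full WT and 2 PHD WT sites gave a ratio of 6.77 (1.51 to 62.3). A focus on chromosome 2 (164703859 to 164705603) and another on chromosome 4 (131429827 to 131431084) each had 9 Full WT sites beside 1 PHD WT site (10.2, 1.41 to 445). The other pair of the 5 highest ratios had 8 and 2 sites each, and their intervals held 1. The 5 lowest ratios were foci without a Full WT site. On chromosome 8 from 67210928 to 67212109 PHD WT had 11 sites. The exact interval of the ratio ran up to 0.449. The remaining 4, on chromosomes 2 and 11, each counted 10 sites of PHD WT (interval up to 0.503). Of these, 2 lay near each other on chromosome 11, from 48667585 to 48669333 and from 48683570 to 48684876, and on each strand both had at least 4 PHD WT sites. Of the 703 foci, 0 lacked a PHD WT site and 6 lacked a Full WT site.

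Outside foci the balance was turned. Of the pooled foci, 884 had at least 5 PHD WT and under 5 Full WT sites, and 131 had the reverse. The share of PHD WT inside foci is thus high partly by the rule, and the shares outside are its complement. Of the Full WT sites, 68.2% (67.6 to 68.8) lay outside pooled foci, against 50.0% (49.3 to 50.6) of the PHD WT sites. Up to 5 kb from a focus were 3.75% of Full WT and 2.48% of PHD WT sites, between 5 and 50 kb 10.7% and 6.80%, and beyond 50 kb 53.8% and 40.7%. The ratio of the shares was 0.635 (0.617 to 0.654) inside foci and 1.32 (1.29 to 1.36) beyond 50 kb. Sites outside foci had fewer reads than those inside in both libraries, with medians of 39 and 45 in Full WT and 26 and 33 in PHD WT. With only sites of at least 10 reads, 73.6% of Full WT and 58.1% of PHD WT sites lay outside foci, so the order held.

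The excess of Full WT outside foci was in single sites, while small runs held the larger share of PHD WT. All sites were sorted by the number of sites of both libraries in their run, with gaps of at most 1000 bp. Sites alone in their run made up 51.4% (50.7 to 52.0) of Full WT and 27.4% (26.9 to 28.0) of PHD WT, a ratio of 1.87 (1.82 to 1.93). Runs of 2 to 4 sites held 16.8% and 22.6%, with a ratio of 0.747 (0.717 to 0.778). The ratio was 0.601 (0.576 to 0.628) in runs of 5 to 9 sites, 0.638 (0.609 to 0.669) in runs of 10 to 19 and 0.740 (0.687 to 0.797) in runs of at least 20. PHD WT therefore had the higher share in every class but single sites, and its lead was not largest in the fullest runs. Runs are counted over both libraries, so the more crowded library fills the classes of grouped sites partly by the rule. Among the 1992 runs of exactly 2 sites, 517 were of Full WT alone, 709 of PHD WT alone and 766 held 1 site of each.

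**Figure D5:**
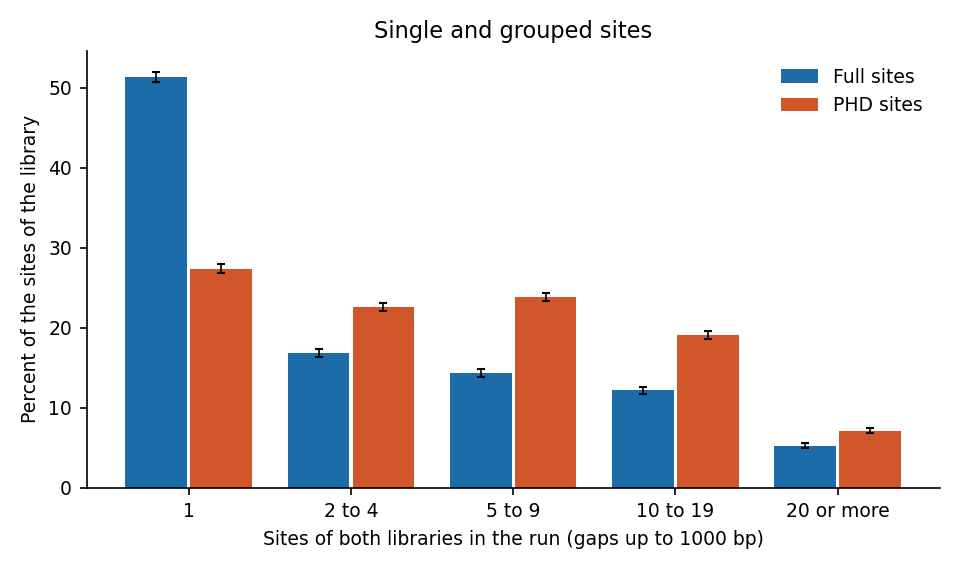
Percent of the sites of each library by the number of sites of both libraries in their run, with gaps up to 1000 bp; bars are the 1 library of each construct and error bars are 95% Wilson intervals (counting error only). Full sites are the larger share of single sites (51.4% against 27.4%), and PHD sites the larger share in every class of grouped sites.

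Outside sites of PHD WT were still grouped with their own kind. Over 5 kb from any pooled focus, 35.9% (35.1 to 36.8) of the PHD WT sites had another PHD WT site within 1 kb, and 21.6% (20.9 to 22.4) had a Full WT site. For Full WT the shares were 15.0% (14.4 to 15.6) with another Full WT site and 15.5% (14.9 to 16.1) with a PHD WT site. The nearest site of the other library was a median of 33131 bp away from these Full WT sites and 19814 bp from these PHD WT sites. By the rule no run of 5 can occur there, so these shares are limited from above.

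The counts of outside sites were compared between the libraries in windows that held such a site of either library. Across 2521 windows of 1 Mb, the counts of sites over 5 kb from a pooled focus had a Pearson r of 0.670 and a Spearman rho of 0.596, given as a description, since windows share mappability and base composition. Across 12254 windows of 100 kb, r was 0.155 and rho -0.13. Both libraries had such a site in 3780 of these windows and in 2240 of the 1 Mb windows. Windows empty in both libraries were left out, which lowers a correlation where windows are sparsely filled. The low values at 100 kb thus cannot show that the libraries were uncorrelated at that scale. Each autosome held a similar share of both libraries, with ratios of Full WT to PHD WT from 0.933 to 1.06, and the interval of each held 1. The X chromosome had 832 Full WT and 1086 PHD WT sites, a ratio of 0.864 (0.789 to 0.947). In pooled foci its ratio was 0.470 (0.391 to 0.563), below the range of the 19 autosomes from 0.527 to 0.752. Outside foci it was 1.11 (0.993 to 1.24), against 1.18 to 1.56 on the autosomes. The X chromosome was thus below every autosome in both places, and these intervals are not adjusted for 20 chromosomes.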

How the data were processed

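Genomic DNA of infected cells (10 μg) was sheared to an average of 500 bp, nested linker-mediated PCR amplified the vector junctions, and read pairs of 108 nt were sequenced after 15 cycles of library PCR, per the labels' protocols. For each library the authors deposited a list of integration sites. The build was mm9 and MACS 1.4.2 is named without a role, per the submitters' processing notes. Aligner and filters: not given in the sources used here. Every deposited score is 0, and the column carries no measurement. A whole number after each read name was taken as reads, from its values only.

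The junction was the start plus 1 on the plus strand and the end on the minus strand. Repeated junctions were collapsed and their reads summed, which removed 354 Full WT and 722 PHD WT lines. No library was thinned; shares and densities are relative to the list. Shares have Wilson, medians order-statistic, and ratios of shares exact conditional binomial intervals. Named foci followed fixed ranks: the 10 fullest, the 5 highest and lowest ratios among foci of at least 10 sites, and the 5 largest distances of medians and differences of spread in each direction among foci with at least 8 sites of each library. Some of each set are described. No gene is named and no sequence printed, since no annotation or genome of mm9 was used. The comparison, the focus rule and the ranks were chosen with earlier results of these data known. Alternatives were 11 settings, described in the closing section. The code (Python 3.11.15, numpy 2.4.6, scipy 1.17.1, pandas 2.3.3, matplotlib 3.10.9) was tested on simulated data.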

Additional observations from a re-analysis of the deposited data

How the results depend on the processing

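Of 107 recomputed values (15 results under up to 11 settings), 68 stayed within the interval of the reported value (for counts, within 1.5 times), 38 moved and 1 reversed. The reversed value was the share of shared foci with the wider Full WT, 46.8% with the interquartile range (the cause was not tested); with a gap of 2000 bp it was 61.7%. With at least 10 reads per site, which left 16903 Full WT and 16580 PHD WT sites, Full WT foci touched a PHD WT focus in 53.0% and PHD WT foci a Full WT focus in 21.4%. The median of Full WT sites from PHD WT centres was 593.8 bp, outside shares were 73.6% for Full WT and 58.1% for PHD WT, and shared foci fell to 175. Pooled foci at least 2-fold higher in Full WT were 16 and lower 107, and such windows lower 149. With same-strand positions within 10 bp merged, the outside shares were 68.9% and 51.1%. With a gap of 500 bp the touching shares were 55.9% and 16.5%, the medians of PHD WT and Full WT sites from the other's centres 530 and 532.5 bp, and the outside shares 75.3% and 60.0%. With a gap of 2000 bp PHD WT foci touched in 30.1%, the Full WT median was 590 bp, and the outside shares were 63.8% and 45.1%. With 8 sites for a focus the touching shares were 60.9% and 17.2%, the medians 706.5 and 603.2 bp, the strand-split ratio at PHD WT foci 0.630, the outside shares 78.0% and 66.3%, and shared foci 100. With the midpoint as centre the medians were 596.5 and 602.5 bp. With offsets within 2000 bp they were 515 and 460.2 bp, and the strand-split ratio at PHD WT foci was 0.643. With identical positions left out, the density ratio between the libraries was 26.2. With windows of 1 Mb, whose number tested was not recorded, 118 were at least 2-fold higher in Full WT and 133 lower. Autosomes alone moved no value. In each of the 7 settings run for them, a larger share of Full WT than of PHD WT sites lay outside foci. A larger share of Full WT foci also touched the other list. In the main setting this follows from the smaller number of Full WT foci, so it is no separate result. Site counts limit the precision at single foci. No paired analysis was possible because each group has 1 library.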

Other observations

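Some positions were listed in both libraries to the base, and whether these were separate integrations was not tested. On the same strand, 200 junctions were listed in Full WT and in PHD WT, 0.889% of the Full WT and 0.789% of the PHD WT sites. At offsets of 11 to 50 bp, same-strand pairs numbered 13.0 per bp on average. Of the 200, 142 lay in pooled foci. Their median reads were 47 in Full WT and 16.5 in PHD WT, where the median of all sites was 41 and 29. On opposite strands, 143 pairs had the PHD WT junction 4 bp ahead in the direction of the Full WT site. At offset 0 there were 29, and at 11 to 50 bp 12.5 per bp on average. Of the 143 pairs, 124 lay in pooled foci, with median reads of 48 and 38. Leaving out the identical positions moved the density ratio between the libraries from 26.7 to 26.2.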
